A study of Mus musculus with 4 samples.

Results

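The 10 genes Mgmt, Mpg, Alkbh2, Alkbh3, Apex1, Xrcc1, Polb, Parp1, Xpc and Ogg1, whose proteins remove alkylated or otherwise damaged DNA, were taken by symbol from the 32285 genes of the deposited tables, and all 10 were found. They were followed in single-nucleus RNA libraries, in which transcripts of isolated nuclei are captured in droplets and counted as unique molecular identifiers (UMIs). The nuclei came from non-tumor liver of male mice aged 12 months. All mice, of both genotypes, had received 25 mg/kg of diethylnitrosamine (DEN) at the age of 14 days, so no liver without the carcinogen enters any comparison. Of the 4 libraries, 2 are labelled Brca1-WT and 2 Brca1-KO, as biological replicates. The labels name neither the cells in which Brca1 was deleted nor its deleted exons, the strain or any pooling of animals, so p-values measure the spread between these libraries.

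DEN is activated by cytochrome P450 enzymes of the hepatocyte to a reactive species that ethylates DNA bases. Cells undo such damage along several routes. MGMT and the ALKBH dioxygenases take the alkyl group off the base and leave the base in place, whereas base excision repair cuts the damaged base out with a glycosylase, opens the backbone at the abasic site, fills the gap and seals the nick. Nucleotide excision repair removes bulky lesions as a short oligonucleotide.

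Each deposited barcode table held 5209 to 7833 barcodes and 36662067 to 45638888 UMIs, and 23868 of 26591 barcodes passed the filters. Levels are given as CPM, the UMIs of a gene scaled to a total of 1000000 UMIs of that class of nuclei in that library. They are not scaled to transcript length, so levels are compared between classes and libraries but not between genes. Transcripts of Brca1 itself, which check the labels, stood at 13.4 and 12.4 CPM in hepatocyte-like nuclei of Brca1-WT replicates 1 and 2, and at 18.6 and 5.78 under the Brca1-KO label, replicates 1 and 2. The library labelled Brca1-KO replicate 1 was thus the highest of the 4 and replicate 2 the lowest, with a log2 fold change of -0.06 (SE 0.53). Counts outside the deleted part of the gene would not check the label. In clustering, the library labelled Brca1-KO replicate 2 stood apart: 95.5% of its hepatocyte-like nuclei fell in 3 clusters that held 0.0777% to 2.44% of those of the other libraries. Any 2 libraries shared 9 to 20 barcodes, at most 0.292% of the smaller library.

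Nuclei were assigned to classes from fixed marker genes. The 10 hepatocyte markers summed to between 18055 and 21237 CPM in hepatocyte-like nuclei, and none was at 0 over the 4 libraries of any other class. There they reached 40.3% to 57.5% of the hepatocyte-like level in B-like nuclei, 25.1% to 51.2% in T and NK-like, 20.8% to 47.7% in endothelial-like, 21.7% to 34.7% in macrophage-like, 18.4% to 32.8% in dendritic-like and 16.1% to 22.6% in mesenchymal-like nuclei. The library labelled Brca1-KO replicate 2 gave the highest of these shares in every class. The reverse was small: in hepatocyte-like nuclei the 10 endothelial markers summed to 21 to 66 CPM, against 10676 to 18375 in endothelial-like nuclei. How far hepatocyte RNA contributes to the levels of the repair genes in other classes was not tested, and the differences between classes below are a description with no test.

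Among the enzymes of direct reversal, Mgmt stood out by class. Mgmt encodes O6-methylguanine-DNA methyltransferase, which moves the alkyl group from guanine onto its own cysteine and is used up in the act. In hepatocyte-like nuclei it measured 335 and 363 CPM in Brca1-WT replicates 1 and 2, and 290 and 262 under the Brca1-KO label, replicates 1 and 2, from 8452 to 10748 UMIs per library. The mean over the 4 libraries was 313 ± 45.2 CPM (SD, n = 4), the highest of the 7 classes. Endothelial-like nuclei followed at 213 ± 20.8 (SD, n = 4), with 241, 200, 195 and 217 CPM in that order of libraries, and none of the 4 reached the lowest hepatocyte-like library. Below them came B-like nuclei at 201 ± 53.9, mesenchymal-like at 165 ± 25.5, macrophage-like at 121 ± 27.6, T and NK-like at 114 ± 46.0 and dendritic-like nuclei at 102 ± 42.5 CPM (SD, n = 4 each). Each of these neighbours in the order overlapped the next in its range over libraries.

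The share of the hepatocyte-like level that Mgmt kept in another class was set beside the share that the hepatocyte markers kept there. Mgmt stood at 71.9%, 55.0%, 67.4% and 82.8% of the hepatocyte-like level in endothelial-like nuclei, in the same order of libraries, above the marker share in 4 of 4. It was also above it in 4 of 4 libraries in mesenchymal-like nuclei (47.1% to 58.0%) and macrophage-like nuclei (28.3% to 47.8%). In B-like nuclei it was above in 3 of 4 libraries, and in T and NK-like and dendritic-like nuclei in 2 of 4 each.

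Alkbh3, which encodes a dioxygenase that demethylates single-stranded DNA and RNA, was far more even. Its class means ran from 30.3 ± 9.33 CPM in dendritic-like nuclei to 51.3 ± 9.26 in T and NK-like nuclei (SD, n = 4 each). Hepatocyte-like nuclei held 55.9, 42.8, 51.6 and 41.6 CPM in the order Brca1-WT replicates 1 and 2, then the Brca1-KO-labelled ones, so 1 library of each genotype was high and 1 low. All neighbours in the order of classes overlapped. Alkbh2, which acts on double-stranded DNA, had 10.5 ± 1.58 CPM in hepatocyte-like nuclei and 4.08 ± 2.25 in endothelial-like nuclei, the lowest class (SD, n = 4 each). The hepatocyte-like libraries (8.34 to 12.1 CPM) lay above all 4 endothelial-like ones (2.35 to 7.20), the latter resting on 5 to 14 UMIs each.

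The glycosylases were sparse. Mpg encodes the alkyladenine glycosylase that starts base excision repair at alkylated purines. It measured 8.92 and 8.85 CPM in hepatocyte-like nuclei of Brca1-WT replicates 1 and 2, and 7.78 and 5.62 under the Brca1-KO label, from 218 to 262 UMIs each. Its mean was lowest in endothelial-like nuclei, at 5.14 ± 1.52 (SD, n = 4), and its ranges overlapped between neighbours throughout. Ogg1, the glycosylase for oxidised guanine, had 4.61 ± 1.02 CPM in hepatocyte-like nuclei and 7.63 ± 3.80 in macrophage-like nuclei, the highest class (SD, n = 4 each), where 2 to 8 UMIs per library were found. In T and NK-like nuclei 1 Ogg1 UMI was found over all 4 libraries. In the annotation Mpg overlaps Nprl3 on the opposite strand and Ogg1 overlaps Camk1. No source used here says whether strand entered the counting, so reads of such pairs may not be told apart. The same holds for Alkbh2 with Usp30, Alkbh3 with Alkbh3os1, Apex1 with Pip4p1 and Polb with Gm26909, while Mgmt, Xrcc1, Parp1 and Xpc overlap no gene on the opposite strand. On the same strand, Mgmt overlaps Gm45280, Alkbh3 overlaps Gm27027 and Parp1 overlaps Mir6904. The part of these overlaps in the counts was not tested.

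Apex1 encodes the endonuclease that cuts the backbone at the abasic site a glycosylase leaves. It was barely detected, with 35, 48, 35 and 61 UMIs in hepatocyte-like nuclei (1.19 to 1.62 CPM) and at most 10 UMIs over the 4 libraries in any other class. No order of classes can be read for it at this depth.

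Polb, the polymerase that fills the single-base gap, and Xrcc1, the scaffold that holds polymerase and ligase at the break, were found in every class. Polb ranged only from 57.4 ± 9.14 CPM in B-like nuclei to 91.7 ± 18.1 in dendritic-like nuclei (SD, n = 4 each), and hepatocyte-like nuclei held 69.6, 59.7, 71.2 and 53.0 CPM. Xrcc1 was lowest in hepatocyte-like nuclei at 15.5 ± 1.63 and higher in macrophage-like nuclei at 28.4 ± 5.83 (SD, n = 4 each). Those 2 classes did not overlap, since the macrophage-like libraries ran from 22.2 to 34.6 CPM and the hepatocyte-like ones from 13.6 to 17.3. Neighbours in the order overlapped for both genes.

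Parp1, the sensor of strand breaks that builds poly(ADP-ribose) chains, separated the classes into 2 tiers. B-like nuclei had 56.9 ± 13.7 and dendritic-like nuclei 55.3 ± 20.5 CPM, and the next class, endothelial-like nuclei, 16.9 ± 1.31 (SD, n = 4 each). The lowest B-like or dendritic-like library, at 28.9, lay above the highest library of any other class, at 26.9. These levels rest on 46 UMIs in all for B-like and 29 for dendritic-like nuclei. Hepatocyte-like nuclei were lowest at 11.5 ± 1.16 (SD, n = 4), from 1457 UMIs.

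Xpc, which recognises helix distortions and starts global nucleotide excision repair, was lowest in hepatocyte-like nuclei, the class in which Mgmt was highest. Endothelial-like nuclei held 64.7, 81.2, 97.6 and 57.6 CPM in the order Brca1-WT replicates 1 and 2, then the Brca1-KO-labelled ones. Mesenchymal-like nuclei held 51.2, 84.3, 54.5 and 73.5, and hepatocyte-like nuclei 15.3, 16.4, 19.5 and 15.9. Averaged over libraries, these classes stood at 75.3 ± 17.9, 65.9 ± 15.7 and 16.8 ± 1.87 CPM (SD, n = 4 each). Endothelial-like and mesenchymal-like libraries thus lay above every library of every other class, the next being T and NK-like nuclei at 35.2 ± 10.9 (SD, n = 4), and hepatocyte-like nuclei were the lowest of the 7. As a share of the hepatocyte-like level, Xpc reached a median over libraries of 458% in endothelial-like and 398% in mesenchymal-like nuclei.

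**Figure D1:**
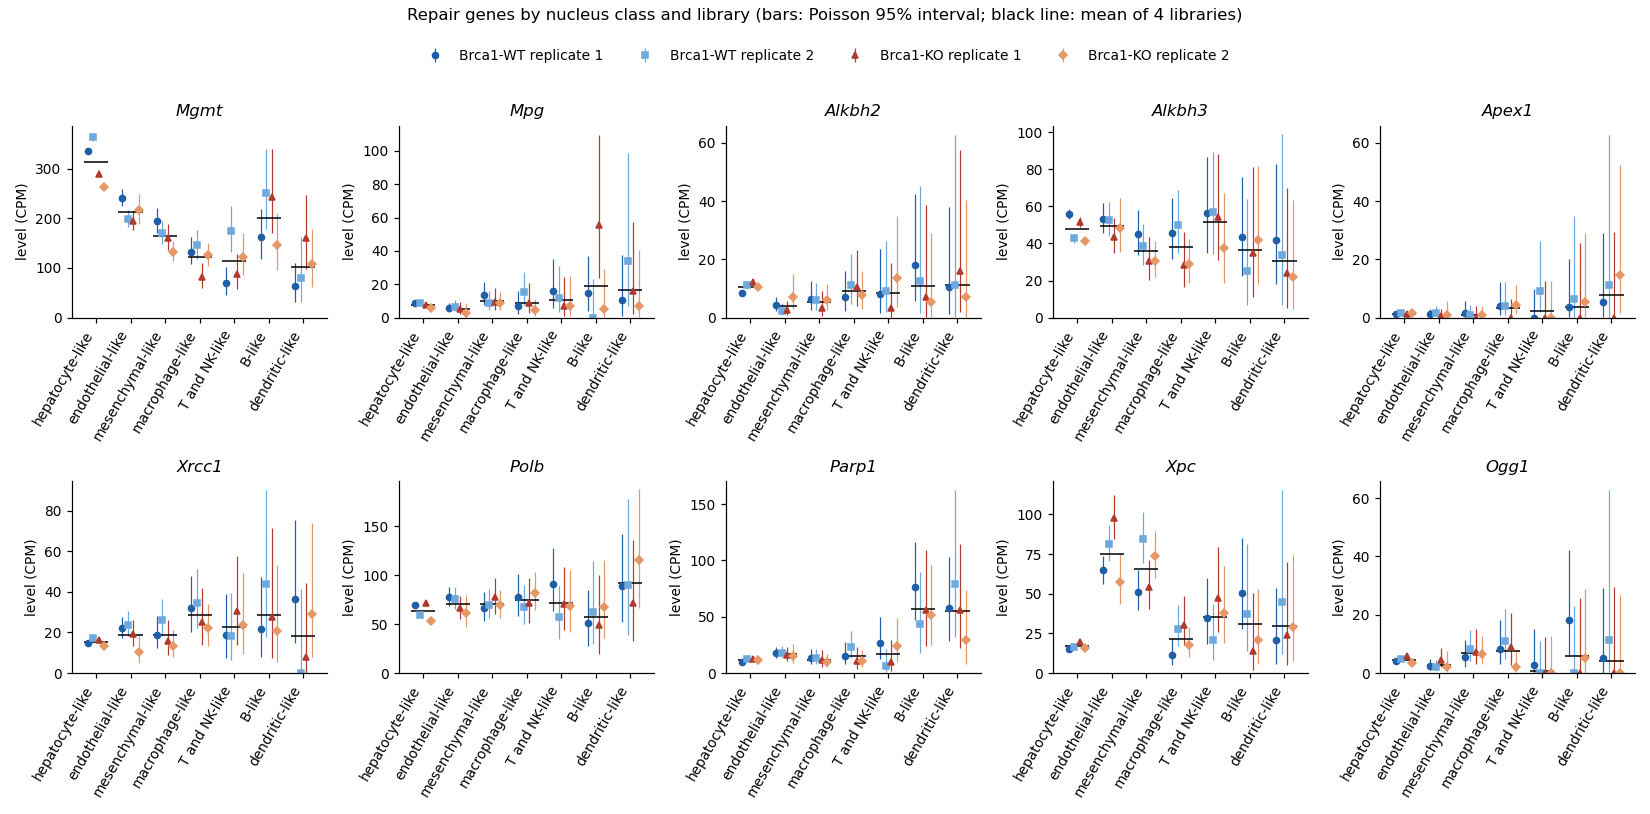
Level of each of the 10 repair genes (vertical axis, CPM, a separate linear scale for each gene) in 7 classes of nuclei. Each point is 1 library with its Poisson 95% interval, which covers counting error only, and the black line is the mean of the 4 libraries. Mgmt is highest in hepatocyte-like nuclei (mean 313), Xpc in endothelial-like (75.3) and mesenchymal-like nuclei (65.9), and Parp1 in B-like (56.9) and dendritic-like nuclei (55.3).

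The comparison of genotypes asked whether transcripts of these genes differed between livers labelled Brca1-KO and Brca1-WT within a class of nuclei. UMIs were summed per library and class and tested over all genes with edgeR's quasi-likelihood test. In hepatocyte-like nuclei all 10 genes had enough UMIs to be tested, and 0 of 10 passed at an adjusted p below 0.05, against a background of 0.0% of 15113 genes. At an unadjusted p below 0.05 the count was 0 of 10, against 3.3% of all genes, and DESeq2 called 0 of 10, against 0.109% of all genes. Of the 10, 5 had a positive and 5 a negative log2 fold change, with a median of 0.01, and the median over all genes was -0.01.

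Mgmt rested on the most UMIs of the 10 in hepatocyte-like nuclei. Its mean was 349 ± 19.5 CPM in Brca1-WT libraries and 276 ± 19.5 under the Brca1-KO label (SD, n = 2 each), and the Brca1-KO-labelled pair of libraries lay wholly below the Brca1-WT pair. The log2 fold change was -0.29 (SE 0.20, 95% interval -0.79 to 0.21), with an adjusted p of 0.989 by edgeR's quasi-likelihood test, so the test did not set the difference apart from the spread between libraries. The exact permutation test of 2 libraries against 2, two-sided, gave p = 0.333, which is the smallest it can give. The summed hepatocyte markers moved in the same direction, from 21237 and 20105 CPM in Brca1-WT replicates 1 and 2 to 18055 and 18151 under the Brca1-KO label. Their part in the Mgmt values was not tested.

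Mpg also had the Brca1-KO-labelled pair wholly below the Brca1-WT pair, with means of 6.70 ± 1.53 and 8.89 ± 0.053 CPM (SD, n = 2 each). Its log2 fold change was -0.36 (SE 0.25, 95% interval -0.995 to 0.27, adjusted p 0.989 by edgeR's quasi-likelihood test). Such a separation was no rarity: of all genes tested in hepatocyte-like nuclei, 19.7% had the Brca1-KO-labelled pair lower and 11.5% had it higher, against 2 and 0 of the 10 repair genes. With TMM scaling between libraries, the background was 16.9% lower and 15% higher, and Alkbh2 and Xpc joined as 2 of the 10 genes without overlap in the higher direction.

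The other 8 genes had log2 fold changes between -0.06 (Xrcc1) and 0.26 (Alkbh2) in hepatocyte-like nuclei. For Xpc the value was 0.20 (SE 0.19), for Parp1 0.15 (SE 0.22) and for Ogg1 0.10 (SE 0.33). Polb at -0.01, Alkbh3 at -0.04 and Apex1 at 0.04 lay nearest to 0. Their 95% intervals set the limit of what these libraries could show: for Polb the interval was 0.692-fold to 1.42-fold, and for Apex1, the sparsest, 0.518-fold to 2.04-fold.

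In endothelial-like nuclei 7 of the 10 genes could be tested, 6 of which had a negative log2 fold change, and 0 of 7 passed edgeR's quasi-likelihood test at an adjusted p below 0.05 (background 0.0%) or at an unadjusted p below 0.05 (background 2.41%). DESeq2 called 0 of 10 (background 0.0%). In 5 of the 7, Mpg, Alkbh3, Xrcc1, Polb and Parp1, the Brca1-KO-labelled pair of libraries lay wholly below the Brca1-WT pair, against 22.0% of all genes (10.6% had the opposite order), or 16.7% with TMM scaling, under which the same 5 genes separated. Polb, for example, measured 77.7 and 76.1 CPM in Brca1-WT replicates 1 and 2 and 66.4 and 61.7 under the Brca1-KO label, a log2 fold change of -0.19 (SE 0.19). Xrcc1 measured 22.2 and 23.9 against 19.1 and 10.3 CPM, a log2 fold change of -0.51 (SE 0.33), which moved to -0.23 when replicate 2 under the Brca1-KO label was left out and to -1.05 when its replicate 1 was. Replicate 2 was also the library with the highest share of hepatocyte markers in endothelial-like nuclei, 47.7% against 20.8% to 25.9% in the others, and with the lowest sum of the 10 endothelial markers, 10676 CPM against 17790 to 18375. Its endothelial-like nuclei sat in other clusters, with 53 of 673 in cluster 0 against 1102 of 1568, 640 of 1568 and 571 of 1192 in Brca1-WT replicates 1 and 2 and the Brca1-KO-labelled replicate 1. The part of these differences in the 5 genes was not tested. Cluster 2 held 423 to 883 endothelial-like nuclei of each library. Within it, Polb (76.1 and 79.997 against 55.8 and 57.4 CPM) and Alkbh3 (55.3 and 51.1 against 40.04 and 46.4) did not overlap between genotypes. Xrcc1 (20.8 and 24.1 against 21.4 and 10.98), Mpg and Parp1 overlapped. These 5 genes were looked at because they had separated in the whole class. Cluster 2 is part of that class, with 608 of the 673 nuclei of replicate 2 under the Brca1-KO label. Its values are therefore no independent reading. The share of all genes that separated within cluster 2 was not computed. Over the whole class, Alkbh3 had a log2 fold change of -0.14 (SE 0.22). When 1 library was left out, Alkbh3 ran from -0.25 to -0.025 and Polb from -0.21 to -0.17. Mgmt differed by a log2 fold change of -0.02 (95% interval -0.50 to 0.46) and Xpc by 0.18 (-0.52 to 0.88).

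Mesenchymal-like nuclei allowed 7 genes to be tested and macrophage-like nuclei 6. With edgeR's quasi-likelihood test, 0 of 7 and 0 of 6 passed at an adjusted p below 0.05 (background 0.0% in each), and 0 of 7 and 0 of 6 at an unadjusted p below 0.05 (background 3.95% and 4.34%). DESeq2 called 0 of 10 in each (background 0.0% in each). Alkbh3, Xrcc1, Parp1 and Mgmt lay lower under the Brca1-KO label, without overlap, in both classes, 4 of 7 and 4 of 6, against 20% of all genes in mesenchymal-like and 21.1% in macrophage-like nuclei (12.9% and 12.4% had the opposite order). In macrophage-like nuclei the summed macrophage markers were lower too, at 7436 and 7948 CPM in Brca1-WT replicates 1 and 2 and 5350 and 5151 under the Brca1-KO label, and the share of hepatocyte markers was 21.7%, 24.5%, 22.1% and 34.7% in that order. Their part in these 4 genes was not tested. The mesenchymal markers in mesenchymal-like nuclei overlapped between genotypes, at 7527 and 7224 against 7099 and 8610 CPM. With TMM scaling Mgmt no longer separated in macrophage-like nuclei, and the backgrounds were 16.9% and 16.5%. With that scaling Polb separated in the opposite direction in mesenchymal-like nuclei, against 16.1% of all genes.

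Alkbh3 in macrophage-like nuclei measured 45.7 and 49.9 CPM in Brca1-WT replicates 1 and 2 and 28.5 and 28.8 under the Brca1-KO label, from 16 to 36 UMIs each. Its log2 fold change was -0.67 (SE 0.31, 95% interval -1.39 to 0.06), with an unadjusted p of 0.067 and an adjusted p of 0.956 by edgeR's quasi-likelihood test. This was the smallest unadjusted p among the 36 tests of these genes over 6 classes. In the same nuclei Parp1 had a log2 fold change of -0.75 (SE 0.47), from 6 to 17 UMIs per library. In mesenchymal-like nuclei Xrcc1 measured 18.9 and 26.3 CPM against 15.7 and 13.4, a log2 fold change of -0.61 (SE 0.33), and Mgmt 194 and 171 against 160 and 133, a log2 fold change of -0.28 (SE 0.17).

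Lymphoid nuclei carried little information. In T and NK-like nuclei Mgmt, Alkbh3, Polb and Xpc could be tested, and in B-like nuclei Mgmt and Polb. By edgeR's quasi-likelihood test, 0 of 4 and 0 of 2 passed at an adjusted p below 0.05 (background 0.0% in each) or at an unadjusted p below 0.05 (background 2.34% and 7.01%). DESeq2 called 0 of 10 in each (background 0.0% in each). Xpc in T and NK-like nuclei had a log2 fold change of 0.63 (SE 0.48), from 7 to 14 UMIs per library, with the Brca1-KO-labelled pair wholly above the Brca1-WT pair, as had 12.3% of all genes. Alkbh3 separated in the lower direction, as had 15.7% of all genes. In B-like nuclei 0 of 2 separated, where 15.3% of all genes did so higher and 21.5% lower. When all kept nuclei of a library were summed, 0 of 10 passed edgeR's quasi-likelihood test at an adjusted p below 0.05 (background 0.0%), 0 of 10 at an unadjusted p below 0.05 (4.58%), and DESeq2 called 0 of 10 (0.148%).

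Whether the genotype difference itself differed between hepatocyte-like and endothelial-like nuclei was tested with the library as a block. By edgeR's quasi-likelihood test 0 of 10 genes passed at an adjusted p below 0.05 (background 0.0%), and 0 of 10 at an unadjusted p below 0.05 (background 3.27%). On simulated counts this test recovered 1% of genes changed by 1 on the log2 scale and 48% of those changed by 2. The simulated sums of the 2 classes were drawn separately, with no library effect in common, so these shares need not hold here. The smallest unadjusted p was 0.212, for Xrcc1, whose log2 fold change was higher by 0.48 (SE 0.37) in hepatocyte-like nuclei. For Mgmt the hepatocyte-like log2 fold change was lower by 0.27 (difference -0.27, 95% interval -0.97 to 0.43). Over all 21 pairs of the 7 classes, 163 combinations of a repair gene and a pair had at least 1 UMI in every library of both classes. In 7 of the 163 the Brca1-KO-labelled libraries separated upwards in one class and downwards in the other. Over all genes the count was 7045 of 199240 (3.54%), a similar share.

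**Figure D2:**
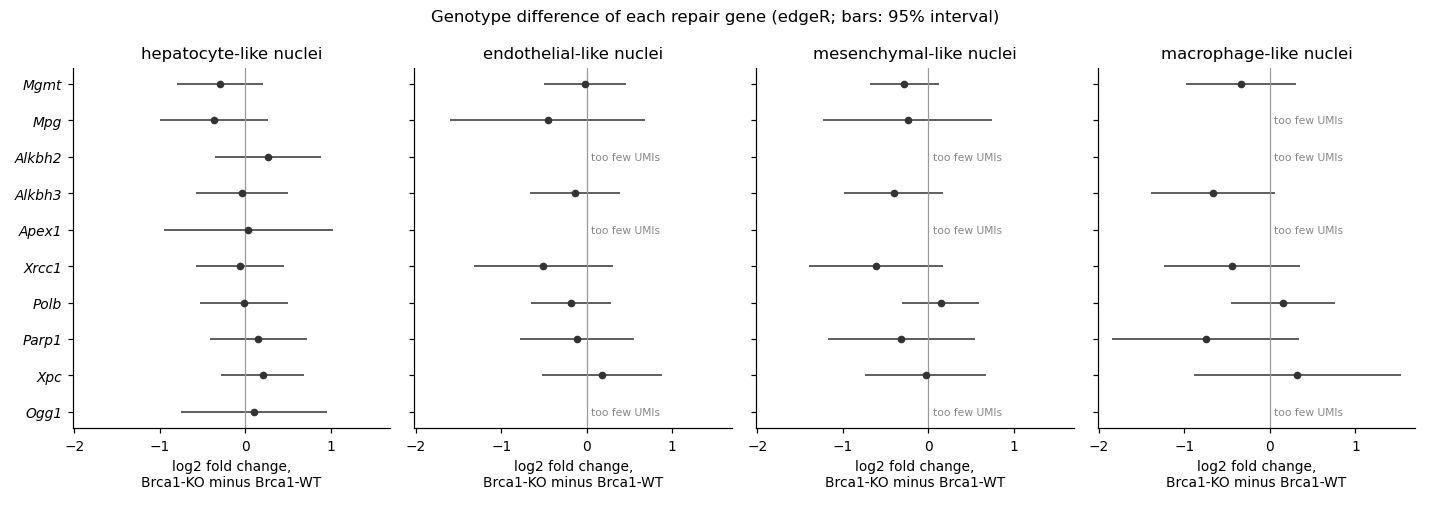
Log2 fold change between libraries labelled Brca1-KO and Brca1-WT (horizontal axis, 0 is no difference) for each repair gene in 4 classes of nuclei. Points are edgeR estimates, bars their 95% intervals, and genes under the count filter have no point. Every interval includes 0, with Alkbh3 in macrophage-like nuclei reaching from -1.39 to 0.06.

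Within the hepatocyte-like class, levels of Mgmt differed between clusters. Clusters 10 and 19 were led by Glul and Lgr5, genes of hepatocytes next to the central vein, and held 24.7%, 13.6%, 14.5% and 9.53% of the hepatocyte-like nuclei in Brca1-WT replicates 1 and 2 and the Brca1-KO-labelled replicates 1 and 2. Mgmt was lower in these than in the other hepatocyte-like clusters in 4 of 4 libraries. The levels were 316 against 341 and 246 against 380 CPM in Brca1-WT replicates 1 and 2, and 230 against 298 and 204 against 268 under the Brca1-KO label. The ratios were 0.927, 0.647, 0.772 and 0.760. Clusters were found on genes of the same nuclei, so this is a description. No repair gene of the 10 was among the variable genes used for clustering.

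Mgmt was also read by library inside single hepatocyte-like clusters. In cluster 3 the Brca1-WT libraries had 367 and 378 CPM and the Brca1-KO-labelled replicates 1 and 2 311 and 288. In cluster 5, led by the periportal genes Sds and Hal, they had 326 and 387 against 284 and 237. Both clusters kept the order of the genotypes seen in the whole class, of which their nuclei are a part. The share of all genes that separated within these clusters was not computed. In cluster 5 the Brca1-WT libraries also differed from each other by more than the lower of them did from replicate 1 under the Brca1-KO label. The library labelled Brca1-KO replicate 2 had only 69 nuclei in cluster 3 and 47 in cluster 5. Its own clusters 7 and 8 held Mgmt at 287 and 247 CPM, and in cluster 8 the Brca1-WT libraries had 450 and 367 CPM. The latter 2 values rest on only 30 and 74 nuclei, against 1957 for the library labelled Brca1-KO replicate 2. Cluster 4, led by mitochondrially encoded genes, did not keep the order, with 328 and 274 CPM in Brca1-WT replicates 1 and 2 against 288 for replicate 2 under the Brca1-KO label. These rest on 31, 43 and 42 nuclei. Cluster 16, led by Cyp2b9, Gpc3 and Thsd4 among others, had the lowest value of the clusters with at least 30 nuclei in a library, 161 CPM in Brca1-WT replicate 1, and no nuclei under the Brca1-KO label.

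For Xpc the Glul-led clusters were above the other hepatocyte-like clusters in 4 of 4 libraries, by ratios of 1.03 to 1.33. The high Xpc level of endothelial-like nuclei was shared by their 2 large clusters. Cluster 0, led by Cyyr1 and Stab2 among others, had 65.8, 86.2, 95.5 and 49.1 CPM, and cluster 2, led by Egfl7 and Flt4 among others, 67.5, 78.1, 110 and 61.0, in the same order of libraries. In both clusters the library labelled Brca1-KO replicate 1 was the highest and replicate 2 the lowest, so neither pair of libraries lay wholly above the other.

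**Figure D3:**
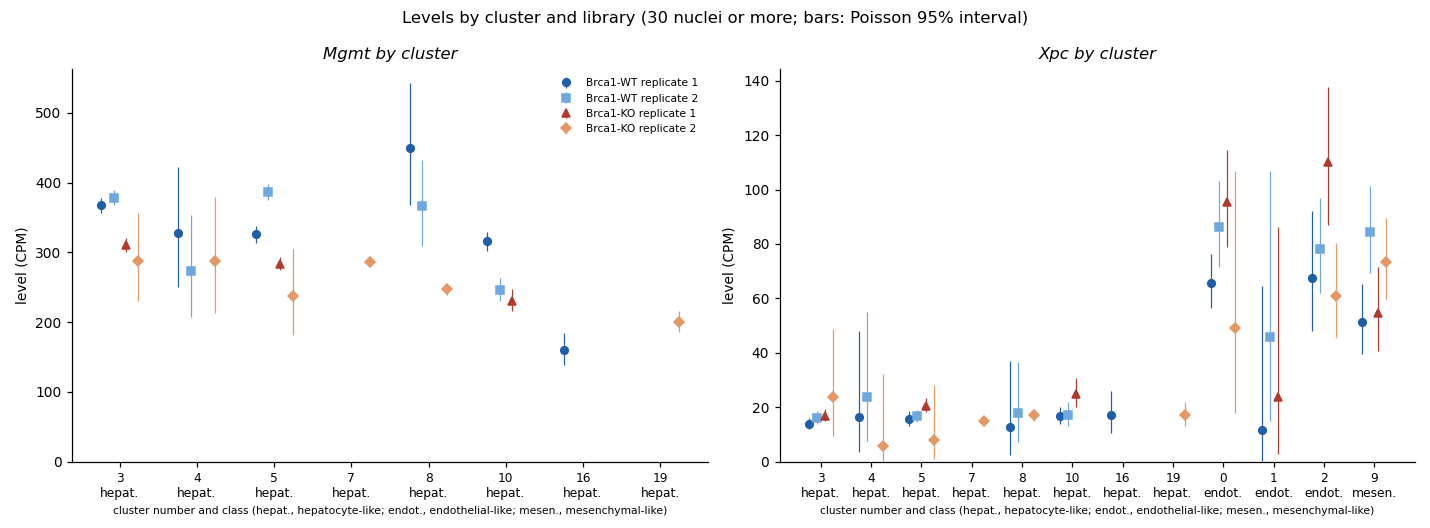
Mgmt in hepatocyte-like clusters (left) and Xpc in hepatocyte-like, endothelial-like and mesenchymal-like clusters (right), in CPM on linear axes. Each point is 1 library with at least 30 nuclei in that cluster, with its Poisson 95% interval. Mgmt is lower in Glul-led clusters 10 and 19, and Xpc is higher in endothelial-like clusters 0 and 2 and mesenchymal-like cluster 9 than in the large hepatocyte-like clusters.

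The 10 genes belong to pathways with further members, which were listed in 8 groups of 82 genes, 81 of them in the tables. In hepatocyte-like nuclei 78 could be tested, 31 with a positive and 47 with a negative log2 fold change. By edgeR's quasi-likelihood test 0 of 78 passed at an adjusted p below 0.05 (background 0.0%), and 0 of 78 at an unadjusted p below 0.05 (background 3.3%), and DESeq2 called 0 of 81 (background 0.109%). The median log2 fold change was -0.06, against -0.01 over all genes. The Brca1-KO-labelled pair lay wholly below the Brca1-WT pair for 14 of the 78 and above for 6, against 19.7% and 11.5% of all genes. In endothelial-like nuclei 67 could be tested, 33 with a positive and 34 with a negative log2 fold change, and a median of -0.01. There 0 of 67 passed edgeR's quasi-likelihood test at an adjusted p below 0.05 (background 0.0%), 1 of 67 did so at an unadjusted p below 0.05 (background 2.41%), and DESeq2 called 0 of 81 (background 0.0%). The Brca1-KO-labelled pair lay wholly below the Brca1-WT pair for 20 of the 67 and above for 4, against 22.0% and 10.6% of all genes.

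By step of repair, the 4 genes of direct reversal had a median log2 fold change of -0.08 in hepatocyte-like nuclei and the 10 tested glycosylases one of -0.17, with 7 of 10 negative. Tdg, a glycosylase for mispaired thymine, measured 29.5 and 28.2 CPM in Brca1-WT replicates 1 and 2 and 27.3 and 23.6 under the Brca1-KO label. Genes that process abasic sites and strand ends split 4 and 4. Of these Hmces, whose protein shields abasic sites by binding them covalently, measured 19.3 and 23.1 against 27.7 and 26.6, a log2 fold change of 0.40 (SE 0.18), and Aptx, which trims abortive ligation ends, 15.7 and 11.1 against 8.74 and 10.9, one of -0.39 (SE 0.28). For gap filling and ligation 9 of 12 were negative, among them Rfc1, the large subunit of the clamp loader, at -0.25 (SE 0.17). The 6 tested genes of poly(ADP-ribose) signalling split 3 and 3, with Parg, which removes the chains, at 0.22 (SE 0.23).

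Nucleotide excision repair, the route Xpc opens, had 24 genes tested, 11 positive and 13 negative, with a median of -0.07. Gtf2h2, a subunit of the TFIIH helicase complex, measured 29.8 and 31.6 CPM against 39.9 and 37.1, a log2 fold change of 0.38 (SE 0.16, adjusted p 0.989 by edgeR's quasi-likelihood test). Its values in the 2 genotypes did not overlap. The 7 mismatch repair genes tested had a median of -0.07. Among them Mlh3, a MutL homologue, measured 32.4 and 27.96 CPM against 31.2 and 23.4, so the genotypes overlapped, with a log2 fold change of -0.10 (SE 0.20). Translesion synthesis, which copies past lesions left unrepaired, had 5 of 7 genes positive, the polymerases Polk, Poli, Polh, Rev1 and Rev3l, and the only positive median of the 8 groups, 0.12. Rev3l, the catalytic subunit of polymerase zeta, measured 172 and 179 against 190 and 219 CPM, a log2 fold change of 0.27 (SE 0.20).

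**Figure D4:**
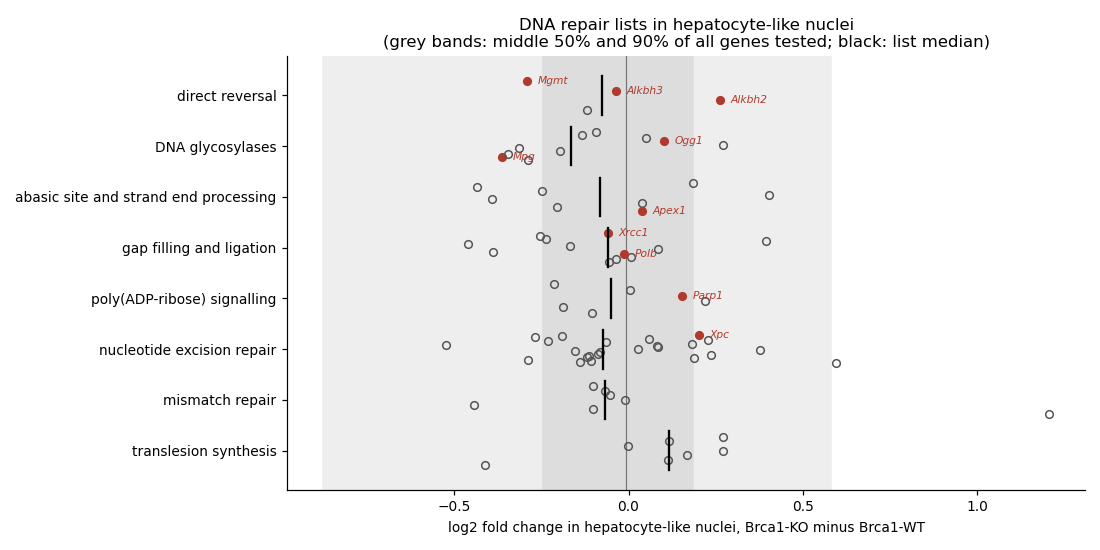
Log2 fold change in hepatocyte-like nuclei between libraries labelled Brca1-KO and Brca1-WT (horizontal axis) for 78 genes in 8 groups of DNA repair. Filled red points are the 10 genes of this account, open points the other listed genes, black bars the group medians, and grey bands the middle 50% and 90% of all genes tested. The group medians lie between -0.17 for DNA glycosylases and 0.12 for translesion synthesis.

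The genes whose pattern over the 28 sums (7 classes in 4 libraries) was most like that of a repair gene were ranked by Pearson's r of log2 levels among 9942 genes. The sums share libraries, depth and hepatocyte RNA, so r is a description. For Mgmt the nearest were Magi1 (r = 0.82), Man2a1 (0.81) and Gm13483 (0.81). For Parp1 they were Tnfrsf13b (0.91) and H2-Ob (0.90), both genes of B cells, and Cacna1e (0.88). For Xpc they were A830019P07Rik (0.85), Ltbp4 (0.83) and Dgkh (0.82), and for Xrcc1 Nup50 (0.87), Chmp1a (0.86) and Sugp1 (0.86). The flatter genes had nearest values of 0.78 for Alkbh3 (Pnkd) and 0.75 for Polb. Mpg, Ogg1 and Alkbh2 were nearest to Bcap29 (0.84), Zfp974 (0.81) and Zdhhc9 (0.73), with few UMIs behind them, and Apex1 had too few for a ranking.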

How the data were processed

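The deposited values are raw UMI counts for each gene in each barcode, not normalized; per the file headers the tool was Cell Ranger 6.0.0. The submitters' processing notes name the human build GRCh38, while all gene identifiers are mouse, so no coordinates or sequences are given. Overlaps between genes come from GENCODE vM21, which matched 32158 of 32285 identifiers.

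The genes and lists were chosen with earlier results of these data known. Nuclei with at least 500 genes and at most 5% mitochondrial UMIs were kept, and Scrublet doublets (scanpy 1.11.5, expected rate 0.06; 11.3%, 7.33%, 5.01% and 2.99% of nuclei in Brca1-WT replicates 1 and 2 and Brca1-KO-labelled replicates 1 and 2) were removed. Joint clustering without batch correction (2000 variable genes, 30 components, 15 neighbours, Leiden resolution 1) gave 20 clusters. A cluster was named where at least 3 markers were detected in 10% of nuclei and its score was 1.5 times the next; 3 clusters (0.666% of nuclei) stayed unnamed, and neutrophil-like nuclei were too few to use. Leaving all listed repair genes out of the clustering kept 99.99% of nuclei in their class.

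UMIs were summed per class and library and tested as Brca1-KO minus Brca1-WT with edgeR 4.0.16 in R 4.3.3 (quasi-likelihood, robust, TMM, filterByExpr, no block), with Benjamini-Hochberg adjustment over all genes and a threshold of 0.05; dendritic-like nuclei were not in this plan. DESeq2 1.42.0, other scalings, no filter, a replicate block, leaving out libraries, kept doublets, thinning to 1000 UMIs and other clustering were alternatives. On simulated counts for hepatocyte-like nuclei the test recovered 100% of genes changed by 2 on the log2 scale and 36% of those changed by 1. For endothelial-like nuclei the shares were 91% and 23%. Changed genes were drawn only from those above 10 CPM, a level Mpg, Ogg1 and Apex1 did not reach in hepatocyte-like nuclei. The simulated spread between libraries was a dispersion of 0.05, fixed for every gene and not estimated from these libraries. The shares recovered therefore need not hold for these data. Named beyond the 10 were Brca1, up to 2 genes per pathway list with the smallest unadjusted p in hepatocyte-like nuclei among genes averaging 3 or more in log2 CPM, and the 3 genes most like each of the 10 with at least 20 UMIs per sum; some genes under this rule are not reported here. Intervals and low counts cover counting error only.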

Additional observations from a re-analysis of the deposited data

Results flagged for a closer look

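In 7 comparisons of classes, the libraries of one class labelled Brca1-KO both moved up and those of another both moved down, without overlap. They are 7 of 163 combinations of a repair gene and a pair of classes. Over all genes the count was 7045 of 199240 (3.54%), a similar share, so the 7 do not set the repair genes apart. The test of each such difference was added after seeing the data, and by edgeR's quasi-likelihood test the adjusted p over all genes was 1 in each of the 7. Mgmt rested in dendritic-like nuclei on 12 and 7 UMIs in Brca1-WT libraries (62.8 and 78.9 CPM) and on 20 and 15 under the Brca1-KO label (159 and 109). Its log2 fold change was higher there than in hepatocyte-like nuclei by 1.28 (SE 0.53), than in macrophage-like nuclei by 1.37 (SE 0.52) and than in mesenchymal-like nuclei by 1.27 (SE 0.53). These Mgmt differences all share the same dendritic-like sums. Each pair of classes was chosen by its separation, so the sizes of all 7 differences are a description. Xpc was higher in T and NK-like nuclei labelled Brca1-KO and lower in B-like nuclei (50.7 and 37.5 against 13.9 and 20.8 CPM, from 2 to 14 UMIs), a difference of 1.89 (SE 0.87). Xrcc1 in T and NK-like nuclei, from 6 to 9 UMIs per library, differed from endothelial-like nuclei by 1.21 (SE 0.62), from macrophage-like nuclei by 1.02 (SE 0.65) and from mesenchymal-like nuclei by 1.15 (SE 0.66). The Xrcc1 differences likewise all share the same T and NK-like sums.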

How the results depend on the processing

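With 2 libraries per genotype, a change of 1 on the log2 scale was mostly missed in simulated counts, and Apex1, Ogg1, Mpg and Alkbh2 rest on few UMIs outside hepatocyte-like nuclei. None of the 10 genes passed an adjusted p below 0.05 in any of the 6 tested classes under any alternative run with all 4 libraries. Dendritic-like nuclei were not among these classes. Of 440 refitted fold changes with all 4 libraries, 15 changed sign, and Mgmt and Mpg in hepatocyte-like nuclei stayed negative in every refit, from -0.35 to -0.22 and from -0.56 to -0.17 when 1 library was left out. The sign changes in hepatocyte-like nuclei were Alkbh3 at 0.0074 and Polb at 0.030 with DESeq2, Polb at 0.0024 with DESeq2 size factors in edgeR and at 0.015 with no filter, and Apex1 at -0.018 with library totals only. With nuclei thinned to 1000 UMIs they were Xrcc1 at 0.038, Polb at 0.028, Brca1 at 0.12 and Mlh3 at 0.084 in hepatocyte-like nuclei, Mgmt at 0.017 in endothelial-like, Polb at -0.066 in macrophage-like, Polb at 0.36 in T and NK-like, Mgmt at 0.0056 in B-like and Polb at -0.072 in mesenchymal-like nuclei. With clusters found without the repair genes, Mgmt in B-like nuclei was 0.072. The causes were not tested. Levels moved by more than the spread between libraries in 22 of 280 alternatives, 10 with doublets kept, 10 with thinning and 2 as a mean over nuclei, and hepatocyte-like nuclei stayed highest for Mgmt in each.

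Counts of genes called over the whole table, 0 in each tested class, were 23 in hepatocyte-like nuclei and 22 in all nuclei with DESeq2. With no filter they were 2 in hepatocyte-like, 39 in endothelial-like, 70 in macrophage-like, 18 in T and NK-like, 7 in B-like, 30 in mesenchymal-like and 2 in all nuclei. Leaving out 1 library gave ranges of 0 to 30 in hepatocyte-like, 0 to 606 in endothelial-like, 0 to 522 in macrophage-like, 0 to 77 in T and NK-like, 0 to 142 in B-like, 0 to 425 in mesenchymal-like and 0 to 270 in all nuclei, and 0 to 462 for the difference between classes, each highest without the library labelled Brca1-KO replicate 1. Leaving out the one labelled Brca1-KO replicate 2, they were 60 in macrophage-like, 52 in mesenchymal-like and 4 in B-like nuclei. Without Brca1-WT replicate 1 they were 2 in macrophage-like and 2 in T and NK-like nuclei and 6 for the difference between classes, and without Brca1-WT replicate 2 they were 1 in T and NK-like and 4 in B-like nuclei and 21 for that difference.

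Fold changes that changed sign when 1 library was left out ran, in hepatocyte-like nuclei, from -0.20 to 0.17 for Alkbh3, -0.21 to 0.29 for Apex1, -0.17 to 0.072 for Xrcc1, -0.19 to 0.16 for Polb, -0.0065 to 0.35 for Parp1, -0.25 to 0.40 for Ogg1, -1.06 to 0.55 for Brca1, -0.28 to 0.077 for Alkbh1, -0.30 to 0.10 for Ung, -0.47 to 0.012 for Parp3 and -0.27 to 0.064 for Mlh3. Mgmt ran from -0.14 to 0.12 in endothelial-like, -0.71 to 0.68 in T and NK-like and -0.35 to 0.28 in B-like nuclei. Polb ran from -0.0013 to 0.28 in macrophage-like, -0.31 to 0.29 in T and NK-like and -0.22 to 0.39 in B-like nuclei. Xpc ran from -0.23 to 0.46 in endothelial-like, -0.19 to 1.15 in macrophage-like and -0.36 to 0.41 in mesenchymal-like nuclei, and Mpg from -0.47 to 0.049 in mesenchymal-like nuclei. Others kept their sign but moved by over 1.5 times. Among them, Xrcc1 ran from -1.05 to -0.23 and Mpg from -0.89 to -0.26 in endothelial-like nuclei. Each was nearest to 0 when replicate 2 under the Brca1-KO label was left out. Alkbh3 ran from -0.25 to -0.025 in endothelial-like and from -0.49 to -0.072 in T and NK-like nuclei. Mgmt ran from -0.74 to -0.048 in macrophage-like nuclei, nearest to 0 when replicate 1 under the Brca1-KO label was left out. Mgmt ran from -0.39 to -0.16 in mesenchymal-like and Alkbh2 from 0.067 to 0.51 in hepatocyte-like nuclei. Xrcc1 ran from -0.83 to -0.31 in mesenchymal-like and Parp1 from -1.03 to -0.39 in macrophage-like nuclei. Both were nearest to 0 without Brca1-WT replicate 2. Differences between classes ran from -0.90 to 0.71 for Alkbh2, -0.074 to 0.31 for Alkbh3 and -0.19 to 0.37 for Xpc.

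The replicate number as a block gave 0 called genes in every tested class and -0.29 for Mgmt in hepatocyte-like nuclei. Deviations of same-numbered libraries from their group means correlated at -0.078 over genes. The labels give no pairing beyond the number. With 2 libraries per genotype, this value cannot show whether same-numbered libraries have anything else in common.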
